A study of Homo sapiens with 34 samples.

Results

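The 10 genes described here are the Notch receptors NOTCH1, NOTCH3 and NOTCH4, the ligands DLL1, DLL3, DLL4 and JAG1, and the target genes HES1, HEY1 and HEY2, taken by symbol from the 23189 genes of an RNA-seq count table. The cells were H1 human embryonic stem cells (ESCs), an established line, on their way to cardiomyocytes. A lentivirus had given them an shRNA that targets the transcription factor gene NKX2-5, ZEB2 or ZNF503, while WT stands for cells with the empty vector or with an shRNA that targets GFP. Cells were sampled on days 0, 2, 6 and 10, after the GSK3β inhibitor CHIR99021 on the first day, the WNT inhibitor IWP2 on days 2 to 5, and insulin from day 7. All groups shared puromycin selection, and each gene was represented by the single shRNA with the strongest knockdown of the 5 vectors tried. Each of the 15 groups of line and day entered with 2 libraries, called biological replicates by the study, and the ZNF503 line was not analysed here at day 10.

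Notch receptors are membrane proteins that are cut when a ligand on a neighbouring cell binds, and the freed intracellular part joins the DNA-binding protein RBPJ and MAML coactivators to switch on genes of the HES and HEY families of transcriptional repressors. DLL1, DLL4 and JAG1 activate receptors on adjacent cells, whereas DLL3 does not and acts mainly against signalling in its own cell. In the embryo the pathway is known for the segmentation of paraxial mesoderm, for arterial endothelium and for the heart, where JAG1 is mutated in Alagille syndrome and HEY1 and HEY2 mark atrial and ventricular chambers, respectively.

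Raw counts per library, summed over the 23189 genes with 1 transcript each, ranged from 38772103 to 90814577 at day 0, 14630405 to 87850810 at day 2, 13807473 to 61514547 at day 6 and 9189943 to 29549874 at day 10. The detection limit used here, 3 counts, equalled 0.0336 to 0.323 CPM, the count scaled to library size. The WT and ZEB2 shRNA libraries of day 10 are replicates 3 and 4, because the columns of replicates 1 and 2 run on for 1077 rows past the last gene identifier and their Spearman correlation with replicate 3 was 0.113 to 0.122, against 0.985 in WT and 0.993 in ZEB2 shRNA cells between replicates 3 and 4. At day 6 the targeted gene remained at 1.30% ± 0.243 of the WT mean with NKX2-5 shRNA, 58.5% ± 1.83 with ZEB2 shRNA and 6.98% ± 0.297 with ZNF503 shRNA (SD, n = 2), and all 3 differences passed. At day 10 the shares were 1.38% ± 1.26 for NKX2-5 and 49.5% ± 0.00779 for ZEB2, the latter not passing. A lower level of the target was not called at days 0 and 2, where ZNF503 was at 127% ± 31.4 and 90.1% ± 35.0 of WT, ZEB2 at 118% ± 86.7 and 66.4% ± 5.43, and NKX2-5 at 43.0% ± 3.34 and, not tested, 24.2% ± 34.3. WT means were 0.106 to 0.316 CPM for the 3 genes at day 0, and 1.53 CPM for ZNF503 at day 2. The study measured its knockdown by real-time PCR and reported a larger loss of ZEB2 mRNA than these ZEB2 shares show. The shares come from reads over whole gene regions, which can include introns, and the cause of the gap was not tested. Summed CPM over 8 cardiomyocyte markers was 9759 to 12340 in WT libraries at day 6, 54.1 to 70.2 in NKX2-5 shRNA, 219.5 to 290.4 in ZNF503 shRNA and 5392 to 5820 in ZEB2 shRNA libraries. These are bulk samples, in which fewer cells of a type and less RNA per cell cannot be told apart.

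On the hg19 (GRCh37) assembly NOTCH1 spans chr9:139388885-139440500 on the minus strand, NOTCH3 chr19:15269849-15311806 on the minus strand and NOTCH4 chr6:32162620-32191844 on the minus strand. Of the ligands, DLL1 lies at chr6:170591294-170615653 (minus), DLL3 at chr19:39989535-39999121 (plus), DLL4 at chr15:41221538-41231271 (plus) and JAG1 at chr20:10618332-10654647 (minus). HES1 lies at chr3:193853937-193856521 (plus), HEY1 at chr8:80674606-80680092 (minus) and HEY2 at chr6:126068810-126082415 (plus). Reads were counted over whole gene regions, and 8 of the 10 genes have a single transcript in the table. DLL3 and HEY1 have 2 each, of which the one with more reads was used.

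Among the 10 genes, the most abundant ones in WT cells changed between days. Compared per exonic length (RPKM, means of 2 libraries), HES1 led at day 0 with 13.5 ± 0.508 and JAG1 followed with 9.60 ± 0.0140. At day 2 HES1 reached 46.1 ± 2.30, and DLL3 came next with 9.77 ± 0.723. At day 6 JAG1 led with 53.5 ± 15.7, before HES1 with 24.4 ± 3.08 and HEY1 with 7.21 ± 2.58, and at day 10 the order of the leading pair was the same, 27.9 ± 6.16 for JAG1 and 14.1 ± 0.422 for HES1 (SD). By this measure JAG1 was the most abundant ligand of the set at days 0, 6 and 10, and DLL3 at day 2. Reads over whole gene regions, which can include introns, were divided by exonic length alone, so the order between genes is approximate. The receptors NOTCH3 and NOTCH1 stood at 7.20 ± 0.268 and 5.63 ± 0.355 RPKM at day 0, whereas the highest daily means of NOTCH4 and DLL4 were 0.297 ± 0.0725 (day 2) and 0.258 ± 0.0468 (day 6). Neighbours in the order whose libraries overlapped were NOTCH1 and HEY2, and DLL1 and HEY1 at day 0, and DLL1 and JAG1 at day 2. At day 6 DLL1, NOTCH1 and DLL3 overlapped in sequence, and at day 10 so did NOTCH3, HEY1, HEY2 and NOTCH1, and NOTCH4 and DLL4.

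**Figure D1:**
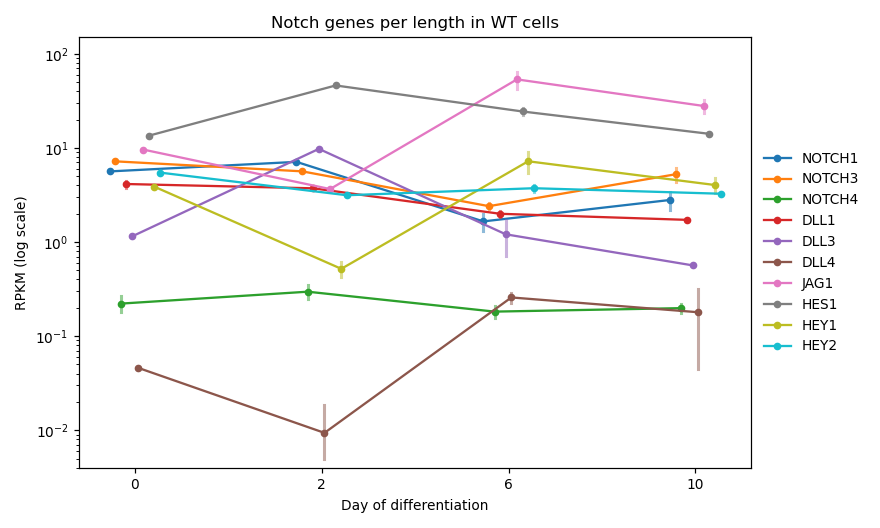
RPKM of the 10 genes in WT cells (log scale) against the day of differentiation; points are means of 2 libraries and the pale bars join the 2 libraries, with the DLL4 library of 0 counts at day 2 drawn at the lower end of its bar. JAG1 and HEY1 dip at day 2 and are highest at day 6, and DLL3 and HES1 are highest at day 2.

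Between day 0 and day 2, as pluripotent cells entered mesendoderm, 5 of the 10 genes passed the test (edgeR quasi-likelihood, Benjamini-Hochberg adjusted p at most 0.05), where 44.1% of all genes tested did. DLL3 rose 8.77-fold and HES1 3.53-fold, and HEY1 fell 7.45-fold, JAG1 2.55-fold and HEY2 1.69-fold. Between days 2 and 6, 8 of 10 genes passed (49.8% of all genes): JAG1, HEY1 and DLL4 rose, and DLL3, NOTCH1, NOTCH3, HES1 and DLL1 fell. Between days 6 and 10, 5 passed (57.5%): NOTCH3 and NOTCH1 rose and JAG1, HEY1 and HES1 fell. Against day 0, 8 genes passed at day 6 (60.9%) and 5 at day 10 (73.8%).

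NOTCH1 and NOTCH3 were both lowest at day 6 in WT cells. NOTCH1 was at 56.2 and 51.4 CPM in the day 0 libraries, 65.5 and 70.5 at day 2, 12.5 and 19.2 at day 6, and 20.8 and 32.8 at day 10. Both day 6 libraries lay below all others, and the log2 fold change from day 2 was -2.11 (SE 0.23, adjusted p = 3.6e-05). NOTCH3 was at 64.1 and 60.9 CPM at day 0, 46.9 and 51.0 at day 2, 19.3 and 22.5 at day 6, and 37.5 and 53.7 at day 10. Its fall from day 2 to day 6 was -1.24 (SE 0.17, adjusted p = 0.00017) and its rise from day 6 to day 10 was 1.14 (SE 0.17, adjusted p = 0.00031) on the log2 scale. The rise of NOTCH1 to day 10, 0.76 (SE 0.23, adjusted p = 0.018), was no longer called without WT day 6 replicate 1 (0.49) or WT day 10 replicate 4 (0.39). NOTCH4, best known from endothelium, ranged from 1.04 to 2.35 CPM over the 8 WT libraries and passed in no comparison of days. At day 10 against day 0 NOTCH1 was lower by -0.97 (SE 0.23) and NOTCH3 by -0.41 (SE 0.17, adjusted p = 0.048) on the log2 scale, and the latter call was lost without either day 0 library (-0.39 and -0.46) or WT day 10 replicate 3 (-0.16).

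Among the ligands of WT cells, JAG1 moved over the widest range in CPM, and DLL3 and DLL4, at far lower counts, also changed several-fold. Its libraries held 57.1 and 57.0 CPM at day 0, 21.3 and 22.1 at day 2, 383 and 252 at day 6, and 192 and 140 at day 10. No library of one day reached those of another, and the rise from day 2 to day 6 was 14.5-fold (log2 3.86, SE 0.22, adjusted p = 2.8e-07). DLL3 took the opposite course, with 2.37 and 2.22 CPM at day 0, 18.6 and 20.6 at day 2, 3.42 and 1.42 at day 6, and 1.08 and 1.18 at day 10. The log2 change was 3.13 (SE 0.35, adjusted p = 7.1e-05) into day 2 and -3.08 (SE 0.35, adjusted p = 5.1e-05) out of it, or -3.81 without WT day 6 replicate 1. DLL1 was at 14.2 and 17.0 CPM at day 0, 13.5 and 14.7 at day 2, 8.06 and 7.02 at day 6, and 6.44 and 6.56 at day 10, with its called step between days 2 and 6 (log2 -0.92, SE 0.18, adjusted p = 0.0022). DLL4, an endothelial ligand, was near the detection limit: its raw counts were 6 and 6 at day 0, 2 and 0 at day 2, 23 and 32 at day 6, and 3 and 10 at day 10. The pooled CPM at day 6 was 20.2 times that at day 2, with an exact 95% interval of 5.32 to 171 that covers counting error only. The call between days 2 and 6 was lost without WT day 2 replicate 2 (log2 3.67), and without replicate 1 the log2 value was 7.55, beside 4.24 with all libraries. The call between days 0 and 6 (log2 2.46, SE 0.78) was lost when any of the 4 libraries was left out, at values of 2.26 to 2.65.

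The target genes of WT cells moved in different directions at day 2, and HEY1 followed the course of JAG1. HEY1 was at 8.91 and 8.08 CPM at day 0, 0.933 and 1.35 at day 2, 19.8 and 11.8 at day 6, and 10.4 and 7.31 at day 10. The log2 change was -2.90 (SE 0.35, adjusted p = 0.00012) into day 2 and 3.82 (SE 0.35, adjusted p = 9.5e-06) from day 2 to day 6. HES1 was at 21.8 and 20.7 CPM at day 0, 75.2 and 70.0 at day 2, 41.8 and 35.0 at day 6, and 21.8 and 22.7 at day 10, so it was highest when HEY1 was lowest. Its log2 changes between these days were 1.82 (SE 0.13, adjusted p = 4.1e-06), -0.94 (SE 0.13) and -0.76 (SE 0.13). HEY2 stayed within a narrow range, 7.98 to 15.1 CPM over the 8 libraries, and was lower than at day 0 by -0.76 (SE 0.19) at day 2, -0.53 (SE 0.18) at day 6 and -0.69 (SE 0.19) at day 10 on the log2 scale. These HEY2 calls were each lost without a single library: at day 2 without WT day 0 replicate 1 (-0.69) or WT day 2 replicate 1 (-0.71), at day 6 without either day 0 library (-0.46 and -0.61) or WT day 6 replicate 2 (-0.41), and at day 10 without WT day 0 replicate 1 (-0.64). A pair of smaller HEY1 calls was lost in the same way: day 6 against day 0 (log2 0.92) without either day 0 library (0.98 and 0.85) or WT day 6 replicate 1 (0.49), and day 10 against day 6 (log2 -0.78) without WT day 6 replicate 1 (-0.37) or WT day 10 replicate 4 (-0.58).

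**Figure D2:**
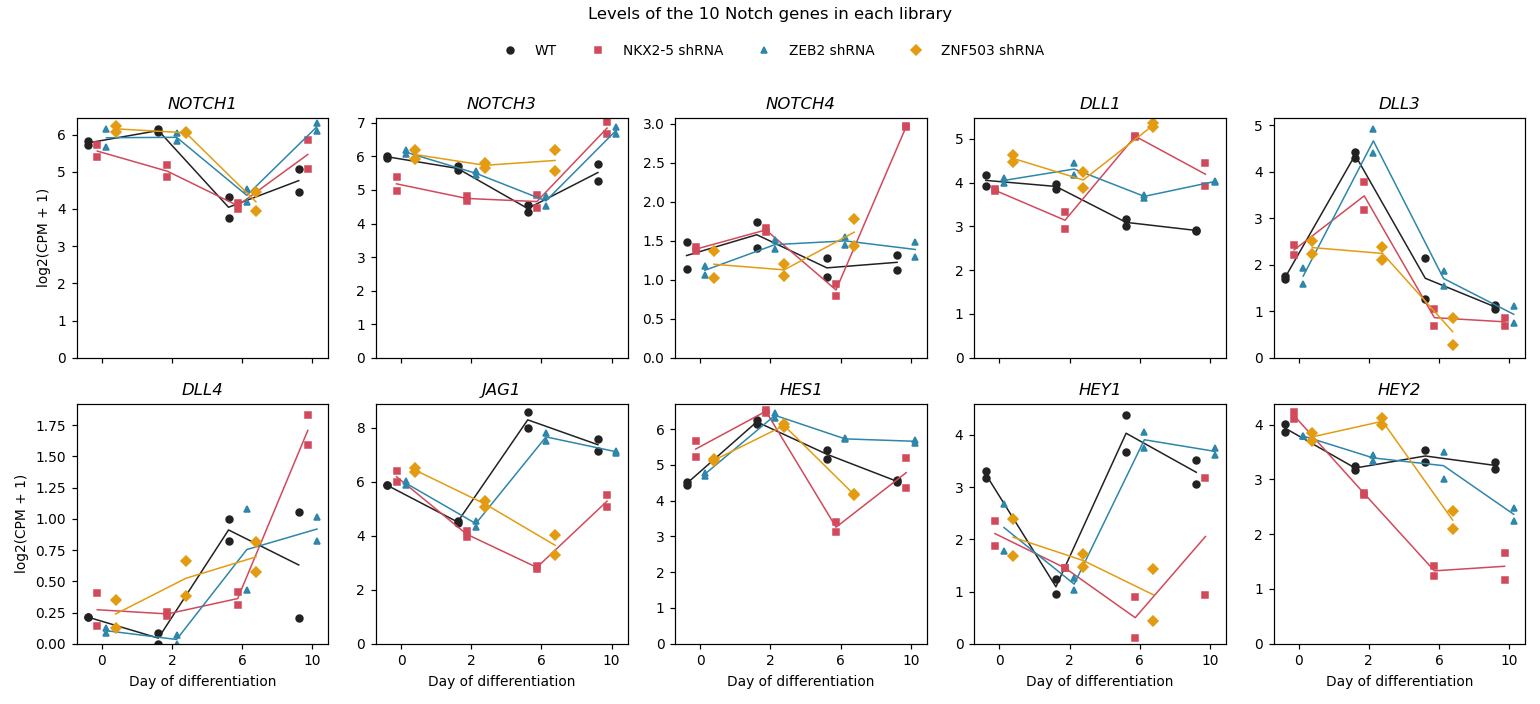
log2(CPM + 1) of each gene in all 30 libraries, by day and line; each point is a library and lines join the means of 2 libraries, and the vertical scale differs between panels. In the JAG1 and HEY1 panels the WT and ZEB2 shRNA points climb from day 2 to day 6 while the NKX2-5 shRNA and ZNF503 shRNA points do not.

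At day 6, the stage of cardiac progenitors, the NKX2-5 and ZNF503 shRNA cells lacked most of the JAG1 and HEY1 RNA of WT cells and held more DLL1. In NKX2-5 shRNA cells 7 of the 10 genes passed the test, beside 49.1% of all genes, with 6 lower, where 24.7% of all genes were, and 1 higher. In ZNF503 shRNA cells 7 passed as well, beside 55.7% of all genes, with 5 lower, where 28.5% of all genes were, and 2 higher. In ZEB2 shRNA cells DLL1 alone passed, beside 11% of all genes. Among the 10 genes JAG1 and HEY1 had the 2 largest differences in both the NKX2-5 and the ZNF503 shRNA lines. At the study's own limits for day 6 (8-fold and 1% false discovery rate) JAG1 and HEY1 were the members called in NKX2-5 shRNA and in ZNF503 shRNA cells, where 4.71% and 3.91% of all genes were called.

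JAG1 was at 383 and 252 CPM in WT libraries at day 6, 5.85 and 6.33 in NKX2-5 shRNA, 15.1 and 8.67 in ZNF503 shRNA, and 224 and 179 in ZEB2 shRNA libraries. The NKX2-5 and ZNF503 shRNA libraries lay far below the others and under their own day 2 level. The difference from WT was 52.2-fold in NKX2-5 shRNA cells (log2 -5.71, SE 0.28, adjusted p = 1.1e-08) and 27.1-fold in ZNF503 shRNA cells (log2 -4.76, SE 0.27, adjusted p = 5.3e-08), and it held without any single library. HEY1 was at 19.8 and 11.8 CPM in WT libraries, 0.0735 and 0.861 in NKX2-5 shRNA (2 and 43 counts), 0.356 and 1.70 in ZNF503 shRNA (7 and 42 counts), and 15.6 and 12.5 in ZEB2 shRNA libraries. Replicates of both knockdowns differed several-fold at these counts, but no library reached the WT range. The log2 difference was -4.86 (SE 0.61, adjusted p = 3.3e-05) with NKX2-5 shRNA, between -4.20 without its replicate 1 and -7.67 without its replicate 2. With ZNF503 shRNA it was -3.87 (SE 0.59, adjusted p = 0.00017), between -3.22 without its replicate 1 and -5.47 without its replicate 2.

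The other targets fell less. HES1 was at 41.8 and 35.0 CPM in WT libraries at day 6, 7.72 and 9.47 in NKX2-5 shRNA and 17.1 and 16.7 in ZNF503 shRNA libraries. The groups did not overlap, and the log2 differences were -2.16 (SE 0.16, adjusted p = 3.7e-07) and -1.19 (SE 0.15, adjusted p = 4.6e-05). In ZEB2 shRNA libraries HES1 was at 52.4 and 51.3 CPM, which did not pass. HEY2 was at 10.6 and 9.02 CPM in WT, 1.36 and 1.68 in NKX2-5 shRNA, 3.26 and 4.38 in ZNF503 shRNA and 10.3 and 7.01 in ZEB2 shRNA libraries. Its log2 difference from WT was -2.67 (SE 0.28, adjusted p = 6.9e-06) with NKX2-5 shRNA and -1.36 (SE 0.26, adjusted p = 0.001) with ZNF503 shRNA.

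DLL1 was the ligand that was higher in all 3 knockdown lines. It was at 8.06 and 7.02 CPM in WT libraries at day 6, 32.7 and 32.0 in NKX2-5 shRNA, 39.9 and 37.8 in ZNF503 shRNA and 12.2 and 11.5 in ZEB2 shRNA libraries. Every knockdown library was above WT, by 4.28-fold (log2 2.10, SE 0.15, adjusted p = 3.2e-07) with NKX2-5 shRNA, 5.15-fold (log2 2.36, SE 0.15, adjusted p = 1.8e-07) with ZNF503 shRNA and 1.59-fold (log2 0.67, SE 0.15, adjusted p = 0.014) with ZEB2 shRNA. The ZEB2 call was lost without WT replicate 2 (log2 0.56), ZEB2 shRNA replicate 1 (0.63) or ZEB2 shRNA replicate 2 (0.70). DLL3 was at 3.42 and 1.42 CPM in WT, 1.07 and 0.601 in NKX2-5 shRNA, 0.204 and 0.810 in ZNF503 shRNA and 2.65 and 1.92 in ZEB2 shRNA libraries, and the WT libraries differed from each other by more than the lower of them differed from NKX2-5 shRNA replicate 1. Its log2 difference of -1.55 (SE 0.55, adjusted p = 0.032) with NKX2-5 shRNA was lost without WT replicate 1 (-0.82) or NKX2-5 shRNA replicate 2 (-1.15). The difference of -2.16 (SE 0.61, adjusted p = 0.0096) with ZNF503 shRNA was lost without WT replicate 1 (-1.42) or ZNF503 shRNA replicate 1 (-1.54), and was -3.52 without ZNF503 shRNA replicate 2. DLL4 held 23 and 32 counts in WT and 9 and 12 counts in NKX2-5 shRNA libraries, and its call there (log2 -1.64, SE 0.62, adjusted p = 0.044) was lost when any of the 4 libraries was left out (-1.39 to -1.85).

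Of the receptors in the set at day 6, NOTCH3 passed with ZNF503 shRNA: 72.5 and 46.1 CPM against 19.3 and 22.5 in WT libraries (log2 1.5, SE 0.21, adjusted p = 9.3e-05), with 21.2 and 27.5 in NKX2-5 shRNA and 27.1 and 22.2 in ZEB2 shRNA libraries. The difference in NOTCH3 between ZNF503 shRNA and NKX2-5 shRNA cells passed its own test (adjusted p = 0.0021). NOTCH1 lay between 12.5 and 22.3 CPM in the 8 libraries of day 6 and NOTCH4 between 0.735 and 2.44 CPM, and neither passed against WT. The receptor NOTCH2, outside the set, had higher levels: 155 ± 10.8 CPM in NKX2-5 shRNA and 241 ± 31.7 in ZNF503 shRNA cells (SD). Between these lines NOTCH2 differed by -0.63 on the log2 scale (SE 0.12, adjusted p = 0.0042). That call was lost without NKX2-5 shRNA replicate 1 (-0.57).

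**Figure D3:**
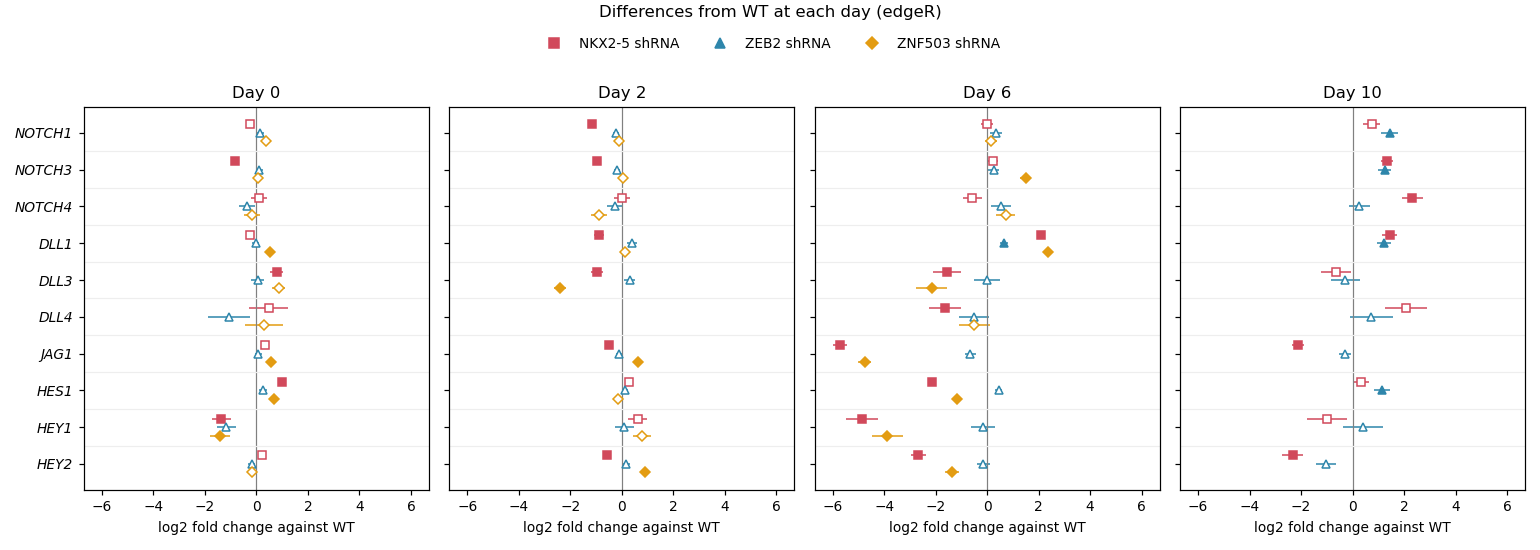
log2 fold change of each gene against WT (edgeR) with its standard error, by day and shRNA line; filled symbols passed at an adjusted p of 0.05 and open ones did not, and a gene without a symbol was not tested or, for ZNF503 at day 10, not analysed here. JAG1 and HEY1 lie farthest to the left at day 6, at -5.71 and -4.86 with NKX2-5 shRNA.

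Markers of cell types moved with these differences at day 6. All 8 cardiomyocyte markers and all 6 cardiac progenitor markers passed as lower in NKX2-5 and in ZNF503 shRNA cells, and summed CPM of the progenitor markers was 1131 to 1489 in WT, 53.5 to 54.4 in NKX2-5 shRNA, 43.5 to 50.2 in ZNF503 shRNA and 562.5 to 629.8 in ZEB2 shRNA libraries. The 6 endoderm and liver markers all passed as higher in both lines, with sums of 1954 to 1996 and 994 to 1000 CPM against 204 to 428 in WT. Smooth muscle and mural cell markers, whose cells use JAG1 and NOTCH3, summed to 590 to 696 CPM in WT, 172 to 201 in NKX2-5 shRNA and 351 to 354 in ZNF503 shRNA libraries. Neural markers, a tissue in which DLL1, DLL3 and HES1 are active, summed to 16.7 to 24.4 CPM in WT, 81.8 to 99 in NKX2-5 shRNA and 151 to 192 in ZNF503 shRNA libraries, with SOX1 at 0 in NKX2-5 shRNA and NEUROG1 at 0 in WT and ZNF503 shRNA cells. Endothelial markers summed to 472 to 560 CPM in WT, 207.6 to 208 in NKX2-5 shRNA and 137 to 178 in ZNF503 shRNA libraries, with 3 of 8 passing as lower and 1 as higher in each line. No marker of the cardiac, endoderm, mural and endothelial lists was at 0 counts in these groups, although MESP1 was at no more than 3 counts per library in both knockdowns, as was NPPA in ZNF503 shRNA cells. In WT cells at day 0, before differentiation, the endothelial sum was already 291 to 314 CPM, so it is not limited to endothelial cells. The part of these cell types in the Notch differences was not tested.

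Within the bases just before the transcription start, HES1, the textbook target of the pathway, and HEY2 carry the RBPJ motif. Their promoters are shown because, of the 7 members with matched promoter sequence, they alone held it. JAG1, which differed more from WT at day 6 than either, was among those without it. Capitals mark the motif GTGGGAA, searched on both strands (TTCCCAC on the reverse), in 250 bases read 5′ to 3′ on the plus strand up to the start (RefSeq, GRCh38.p14), at chr3:194135898-194136147 for HES1 and chr6:125749382-125749631 for HEY2.
HES1: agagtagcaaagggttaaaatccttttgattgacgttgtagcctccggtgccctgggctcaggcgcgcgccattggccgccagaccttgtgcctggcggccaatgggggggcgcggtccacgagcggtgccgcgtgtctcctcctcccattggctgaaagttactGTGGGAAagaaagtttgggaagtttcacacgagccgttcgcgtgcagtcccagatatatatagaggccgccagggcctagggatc
HEY2: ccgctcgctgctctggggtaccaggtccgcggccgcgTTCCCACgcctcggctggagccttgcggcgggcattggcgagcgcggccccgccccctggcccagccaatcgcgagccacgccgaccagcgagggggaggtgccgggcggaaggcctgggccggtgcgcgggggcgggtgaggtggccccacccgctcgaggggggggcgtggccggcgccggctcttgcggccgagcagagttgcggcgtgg
The HES1 motif begins 85 bases before the start, and the HEY2 motif lies 213 bases before it in reverse orientation. A further HEY2 match begins 4 bases before the start and runs past it, so it is not whole in the stretch printed. Promoter sequence was matched for 7 of the 10 genes (all but DLL1, DLL3 and HEY1), and 2 of them held the motif in the 300 bases from 250 before to 50 after the start, where 6.25% of 35116 promoters held it at least once and 0.248% at least 2 times. A match is a run of letters and does not show binding.

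At day 10 NKX2-5 shRNA cells still had less JAG1 than WT cells, and NOTCH4 and NOTCH3 were higher. Of the 10 genes 5 passed, beside 43.9% of all genes. JAG1 was at 32.2 and 44.2 CPM against 192 and 140 in WT libraries (log2 -2.12, SE 0.24, adjusted p = 0.00084), and both values were above those of the same line at day 6. HEY2 was at 1.24 and 2.17 CPM against 8.09 and 9.03 (log2 -2.32, SE 0.41, adjusted p = 0.0043). HEY1 was at 0.906 and 8.03 CPM in NKX2-5 shRNA and 10.4 and 7.31 in WT libraries, so that 1 knockdown library lay in the WT range, and HES1 was at 35.7 and 19.6 against 21.8 and 22.7 CPM. Neither passed.

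NOTCH4 was at 6.77 and 6.80 CPM in NKX2-5 shRNA libraries at day 10, its highest level in the 30 libraries, and at 1.49 and 1.18 in WT (log2 2.32, SE 0.41, adjusted p = 0.004). DLL4 was at 2.00 and 2.55 CPM in the same NKX2-5 shRNA libraries, also its highest, and at 0.155 and 1.08 in WT (3 and 10 counts), which did not pass (adjusted p = 0.076). NOTCH3 was at 128 and 101 against 37.5 and 53.7 CPM (log2 1.34, SE 0.25, adjusted p = 0.0049) and DLL1 at 14.2 and 20.9 against 6.44 and 6.56 CPM (log2 1.44, SE 0.29, adjusted p = 0.0067). NOTCH4 and DLL4 are known from endothelium, and 7 of the 8 endothelial markers passed as higher in these cells. PECAM1 was at 17.8 ± 6.23 CPM against 0.466 ± 0.507 in WT and CDH5 at 17.8 ± 6.43 against 1.30 ± 0.929, whereas KDR, which is not limited to endothelium, was at 70.7 ± 34.9 against 373 ± 53.0 (SD, n = 2). Summed over the 8 markers the level was 193 to 312 CPM against 346.5 to 444 in WT libraries, with no marker at 0. Smooth muscle and mural cell markers summed to 148 to 223.5 CPM against 361.5 to 374.9 in WT libraries. Blood markers summed to 899 to 1023 CPM against 11.1 to 40.9, and endoderm and liver markers to 21720 to 32830 against 1316 to 3170. Their part in the Notch differences was not tested.

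In ZEB2 shRNA cells at day 10, 4 of the 10 genes passed as higher than WT, beside 18.2% of all genes in either direction and 10.6% in that one. NOTCH1 was at 78.9 and 67.7 CPM against 20.8 and 32.8 (log2 1.45, SE 0.33, adjusted p = 0.025) and NOTCH3 at 117 and 101 against 37.5 and 53.7 (log2 1.25, SE 0.25, adjusted p = 0.015). DLL1 was at 15.1 and 15.4 against 6.44 and 6.56 CPM (log2 1.22, SE 0.28, adjusted p = 0.027) and HES1 at 47.8 and 51.2 against 21.8 and 22.7 CPM (log2 1.15, SE 0.30, adjusted p = 0.038). The groups did not overlap, but all 4 calls were lost when any 1 of the 4 libraries was left out, with log2 values of 1.02 to 1.82. JAG1 was at 140 and 134, HEY1 at 12.5 and 11.3 and HEY2 at 4.57 and 3.75 CPM, and none of these passed. Cardiomyocyte markers summed to 4063 to 5902 CPM in these libraries and 14640 to 17790 in WT, and cardiac progenitor markers to 440 to 454 against 766 to 921. Endoderm and liver markers summed to 5477 to 6593 against 1316 to 3170 CPM, and neural markers to 29.1 to 40.0 against 15.5 to 19.5, with SOX1 at 0 in both groups. Smooth muscle and mural cell markers summed to 263.2 to 269.2 CPM in ZEB2 shRNA and 361.5 to 374.9 in WT libraries. Of the 8 endothelial markers 5 passed as higher, with sums of 381 to 453 against 346.5 to 444 CPM. Their part in the Notch differences was not tested.

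At day 2, when NKX2-5 RNA itself was at 0.219 CPM in WT cells, NKX2-5 and ZNF503 shRNA cells already differed from WT in Notch genes. In NKX2-5 shRNA cells 6 of 9 tested genes passed, all lower, beside 26.7% of all genes, or 13.6% in that direction. NOTCH1 was at 27.8 and 35.3 CPM against 65.5 and 70.5 in WT libraries (log2 -1.15, SE 0.13, adjusted p = 4.3e-05) and NOTCH3 at 24.7 and 27.1 against 46.9 and 51.0 (log2 -0.95, SE 0.11, adjusted p = 5.2e-05). DLL1 (6.71 and 9.08 against 13.5 and 14.7 CPM) and DLL3 (8.10 and 12.8 against 18.6 and 20.6 CPM) were lower by -0.88 (SE 0.19) and -0.96 (SE 0.23), and both calls were lost without NKX2-5 shRNA replicate 1 (-0.63 and -0.62). JAG1 (log2 -0.50, SE 0.14) was lost without WT replicate 2 (-0.46) or NKX2-5 shRNA replicate 2 (-0.42), and HEY2 (log2 -0.57, SE 0.17) without WT replicate 1 (-0.63), WT replicate 2 (-0.51) or NKX2-5 shRNA replicate 1 (-0.51). Mesendoderm markers summed to 4557 to 4681 CPM in these libraries and 2947 to 3050 in WT. Endothelial markers summed to 92.6 to 107 against 228 to 233, with CDH5 at 0 in both groups and EMCN at 0 in the knockdown. PECAM1 in both groups, and EMCN and ESAM in WT, were at no more than 3 counts per library. Paraxial mesoderm markers, which include the Notch pathway gene HES7, summed to 5.21 to 6.07 against 13.6 to 14.6. MSGN1 was at 0 in the knockdown and MEOX1 at 0 in WT. RIPPLY2 in both groups and MEOX1 in the knockdown were at no more than 3 counts per library. The endothelial and paraxial sums thus rest on the other markers of each list. In WT cells at day 0, before differentiation, the endothelial sum was already 291 to 314 CPM, so it is not limited to endothelial cells. The part of these cell types in the Notch differences was not tested.

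In ZNF503 shRNA cells at day 2, 3 of 9 genes passed, beside 26.9% of all genes. DLL3 was at 4.19 and 3.33 CPM against 18.6 and 20.6 in WT libraries (log2 -2.40, SE 0.24, adjusted p = 4.6e-06), close to its own day 0 level of 3.69 and 4.71. HEY2 was at 16.4 and 15 against 7.98 and 8.52 CPM (log2 0.88, SE 0.16, adjusted p = 0.00086) and JAG1 at 37.8 and 32.5 against 21.3 and 22.1 CPM (log2 0.65, SE 0.13, adjusted p = 0.0023), both higher. These 3 calls held without any single library. Mesendoderm markers, which were above WT in NKX2-5 shRNA cells, summed to 1012 to 1207 CPM in ZNF503 shRNA libraries, below WT, and paraxial mesoderm markers to 3.55 to 3.59 against 13.6 to 14.6. MEOX1 was at 0 in WT. RIPPLY2 in WT, and MSGN1 and MEOX1 in ZNF503 shRNA cells, were at no more than 3 counts per library. Their part in the result was not tested. In ZEB2 shRNA cells 0 of 9 genes passed by edgeR or by DESeq2, beside 0.49% of all genes by edgeR, and 0 had an unadjusted p under 0.05, and DLL3 was at 20.2 and 29.5 CPM. DLL4, at 0 to 27 counts per library, was not tested at day 2.

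Before differentiation HEY1 was lower and HES1 higher than in WT cells in NKX2-5 and ZNF503 shRNA cells. HEY1 was at 8.91 and 8.08 CPM in WT, 4.08 and 2.67 in NKX2-5 shRNA, 4.27 and 2.21 in ZNF503 shRNA and 2.43 and 5.38 in ZEB2 shRNA libraries, and every knockdown library was below WT. HES1 was at 21.8 and 20.7 CPM in WT, 35.9 and 50.1 in NKX2-5 shRNA, 33.1 and 34.8 in ZNF503 shRNA and 26.4 and 25.0 in ZEB2 shRNA libraries, every knockdown library being above WT. With NKX2-5 shRNA 4 of 10 genes passed (15.9% of all genes): HES1 by 1.00 (SE 0.15, adjusted p = 0.0014), DLL3 by 0.79 (SE 0.25, adjusted p = 0.048), HEY1 by -1.36 (SE 0.37, adjusted p = 0.029) and NOTCH3 by -0.82 (SE 0.15, adjusted p = 0.0038) on the log2 scale. The DLL3 and HEY1 calls were lost without WT replicate 1 (0.83 and -1.29), WT replicate 2 (0.74 and -1.43) or NKX2-5 shRNA replicate 2 (0.65 and -1.08). With ZNF503 shRNA 4 of 10 passed (7.53% of all genes): HES1 by 0.67 (SE 0.14), JAG1 by 0.58 (SE 0.13), DLL1 by 0.52 (SE 0.14) and HEY1 by -1.42 (SE 0.37), and each was lost when any 1 of the 4 libraries was left out, at log2 values of 0.40 to 0.71 for the genes that rose and -0.99 to -1.96 for HEY1. With ZEB2 shRNA 0 of 10 passed by edgeR (3.93% of all genes) and 1 by DESeq2, and 1 had an unadjusted p under 0.05 by edgeR.

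The shRNA lines were also compared with each other. Among 9 tested genes at day 2, 8 passed between NKX2-5 and ZNF503 shRNA cells (39.5% of all genes), 6 between NKX2-5 and ZEB2 shRNA cells (23.2%) and 4 between ZEB2 and ZNF503 shRNA cells (29.3%). DLL3 was ordered ZEB2 shRNA above NKX2-5 shRNA above ZNF503 shRNA, with a gap of 2.71 on the log2 scale (SE 0.24, adjusted p = 1.1e-06) between the ends. Of the 10 genes at day 6, 5 passed between NKX2-5 and ZNF503 shRNA cells (14.7%), 7 between NKX2-5 and ZEB2 shRNA cells (44.4%) and 7 between ZEB2 and ZNF503 shRNA cells (49.2%). HES1 was lower with NKX2-5 than with ZNF503 shRNA by -0.97 (SE 0.16, adjusted p = 0.002), whereas HEY1 (log2 -0.98, SE 0.72), DLL1 (-0.27, SE 0.14) and DLL3 (0.60, SE 0.65) did not pass between these lines. At day 10, 2 of 10 passed between NKX2-5 and ZEB2 shRNA cells (21.3%): NOTCH4 by 2.07 (SE 0.39), lost without ZEB2 shRNA replicate 3 (2.23) or 4 (1.92), and JAG1 by -1.83 (SE 0.24, adjusted p = 0.0042).

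The study's own limits joined a fold change to a false discovery rate and called fewer of the 10 genes. The study used them for each knockdown against WT and for WT days 2, 6 and 10 against day 0. They were extended here to the other comparisons, with the limit of the later day between WT days. At day 10 WT and ZEB2 shRNA cells entered with fewer libraries than in the study. Between WT days they called DLL3 and HEY1 at day 2 against day 0 (8.36% of all genes) and DLL3, DLL4, HEY1 and JAG1 at day 6 against day 2 (8.35%). They called 0 of 10 at day 6 (10.2%) and day 10 (15.5%) against day 0 and at day 10 against day 6 (3.94%), where 8, 5 and 5 passed by adjusted p. In the knockdowns at day 0 they called HES1 and HEY1 with NKX2-5 shRNA (4.03%), HEY1 with ZNF503 shRNA (2.56%) and 0 with ZEB2 shRNA (2.2%). At day 2 DLL3 was called with ZNF503 shRNA (2.8%), and 0 genes with NKX2-5 shRNA (1.19%) or ZEB2 shRNA (0.133%). Beside JAG1 and HEY1 in the NKX2-5 and ZNF503 lines at day 6, 0 were called with ZEB2 shRNA (0.462%), and at day 10 0 with NKX2-5 shRNA (7.31%) or ZEB2 shRNA (1.46%). Between lines at day 2, DLL3 was called between ZEB2 and ZNF503 shRNA (2.83%), and 0 genes between NKX2-5 and ZNF503 shRNA (3.98%) or NKX2-5 and ZEB2 shRNA (1.14%). At day 6 JAG1 and HEY1 were called between NKX2-5 and ZEB2 shRNA (4.59%) and between ZEB2 and ZNF503 shRNA (3.48%), and 0 between NKX2-5 and ZNF503 shRNA (0.395%). The last comparison, NKX2-5 with ZEB2 shRNA at day 10, called 0 (1.95%). JAG1 and HEY1 were thus the 2 genes that the stricter limits kept between lines at day 6.

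Over the 15 groups of line and day, the 2 genes of the set whose mean log2(CPM + 1) ran closest together were JAG1 and HEY1, with a Pearson correlation of 0.935, and 0.882 over the 30 libraries. HES1 with DLL3 followed at 0.755, NOTCH1 with NOTCH3 at 0.658 and NOTCH4 with DLL4 at 0.645. The lowest values were -0.641 for DLL3 with DLL4 and -0.623 for JAG1 with DLL1. HEY2 correlated with HEY1 at 0.290. Groups of 1 line share their cells' origin and points of 1 day share the stage, so these values only describe the table. Of 17021 other genes, CGNL1, KCNN2 and PKIA were the 3 most like JAG1 (0.95, 0.94 and 0.946), and CGNL1, KCNN2 and C1orf21 the 3 most like HEY1 (0.935, 0.925 and 0.919). DLL3 was most like TSGA10IP (0.961) and FOXC1 (0.958), a paraxial mesoderm transcription factor. NOTCH1 was most like ARHGEF40 (0.95), NOTCH3 most like IGF1R (0.939), NOTCH4 most like IGFL2 (0.926), DLL4 most like CYB5R1 (0.939), and HES1 most like IFITM3 (0.902).

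**Figure D4:**
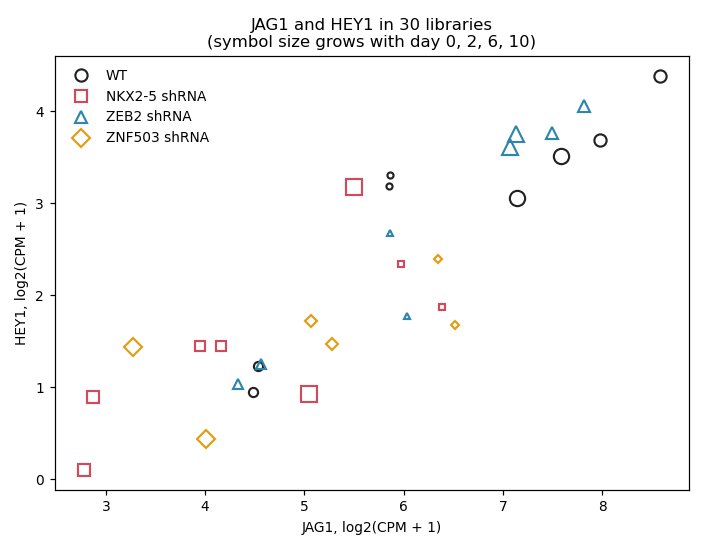
log2(CPM + 1) of HEY1 against JAG1 in the 30 libraries; shape and colour give the line, and larger symbols are later days. The WT and ZEB2 shRNA libraries of days 6 and 10 lie at the upper right, and the day 6 libraries of the NKX2-5 and ZNF503 shRNA lines at the lower left.

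Beyond the 10 genes, a list of 32 other pathway genes (receptor NOTCH2, ligand JAG2, the RBPJ complex, proteases, glycosyltransferases, regulators and further targets) was followed. In WT cells 11 of 31 tested genes passed between days 0 and 2, with 4 higher and 7 lower, beside 44.1% of all genes. LFNG, a Fringe enzyme that changes which ligands a receptor answers to, went from 4.62 ± 0.197 to 29.2 ± 1.66 CPM (log2 2.70, SE 0.20, adjusted p = 5.5e-06), alongside DLL3. MAML3 rose by 1.98 and MAML2 fell by 2.33 on the log2 scale. From day 0 to day 6, 11 rose and 8 fell (60.9% of all genes passed), with DLK1, a Delta-like membrane protein, from 1.07 ± 0.153 to 47.3 ± 5.66 CPM, HES4 from 0.423 ± 0.0432 to 10.0 ± 2.52 CPM, and HES6 from 29.5 ± 0.0929 to 3.25 ± 1.29 CPM (SD). From day 6 to day 10, 11 rose and 8 fell (57.5% of all genes passed). JAG2 went from 3.18 ± 0.216 to 21.3 ± 4.43 CPM (log2 2.77, SE 0.28), while LFNG fell to 0.524 ± 0.133 CPM (log2 -4.72, SE 0.29).

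In NKX2-5 shRNA cells at day 6, 12 of 30 tested pathway genes passed, 7 higher and 5 lower, beside 49.1% of all genes, and in ZNF503 shRNA cells 17 passed, 12 higher and 5 lower, beside 55.7%. DTX4, an E3 ubiquitin ligase, was at 22.9 ± 4.27 CPM in WT, 62.5 ± 2.17 in NKX2-5 shRNA and 93.1 ± 2.61 in ZNF503 shRNA cells (log2 1.44 and 2.02, SE 0.14 in each). LFNG was at 14.9 ± 3.36, 32.7 ± 1.65 and 37.4 ± 3.18 CPM (log2 1.12 and 1.31, SE 0.17 in each). DLK1 was at 47.3 ± 5.66, 30.6 ± 5.64 and 23.3 ± 2.24 CPM (log2 -0.64 and -1.02, SE 0.16 in each), where the NKX2-5 shRNA call was lost without its replicate 2 (-0.46). HES6 fell by 1.54 on the log2 scale with NKX2-5 shRNA (SE 0.34) and NEURL1 by 2.38 with ZNF503 shRNA (SE 0.66), the latter call being lost without ZNF503 shRNA replicate 1 (-1.78). In ZEB2 shRNA cells 2 of 30 passed (11% of all genes), POFUT1 (log2 0.46, SE 0.12) and RBPJ (log2 0.38, SE 0.10). The RBPJ call was lost when any library was left out (0.37 to 0.39), and that of POFUT1 without WT replicate 1 (0.39) or either ZEB2 shRNA library (0.45 and 0.47). The members' median log2 difference was -1.60 with NKX2-5 shRNA and -0.844 with ZNF503 shRNA, that of the other pathway genes 0.172 and 0.263, and that of all genes -0.002 and -0.030.

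**Figure D5:**
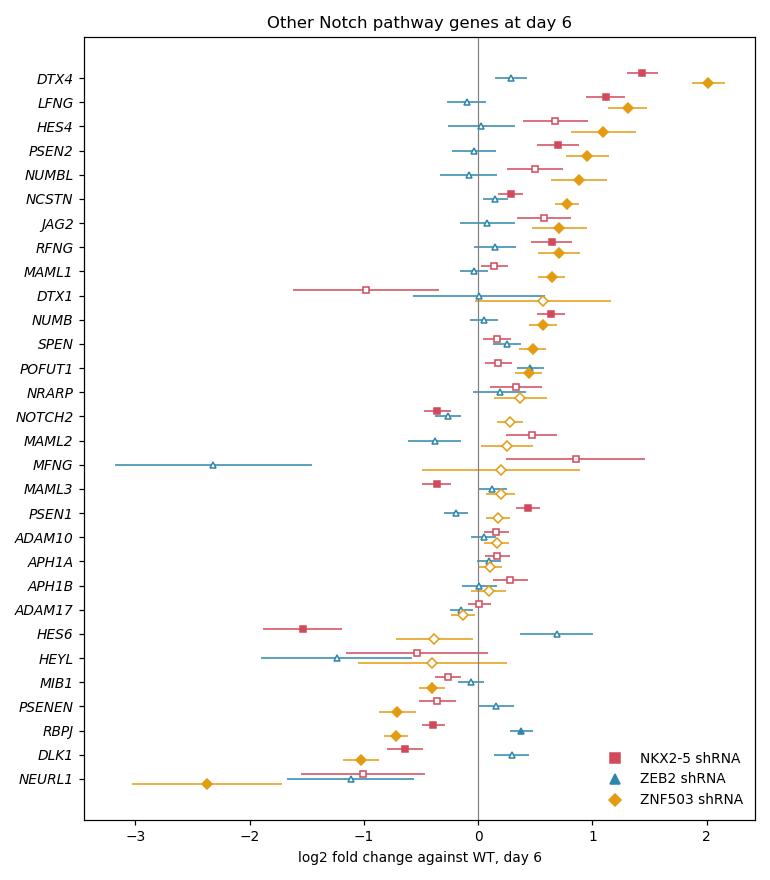
log2 fold change against WT at day 6 with its standard error for the 30 tested genes of the other pathway list, ordered by the value in ZNF503 shRNA cells; filled symbols passed at an adjusted p of 0.05. DTX4 and LFNG are at the top in both the NKX2-5 and the ZNF503 shRNA lines, and the ZEB2 shRNA symbols lie mostly near 0.

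At day 10, 10 of 30 pathway genes passed in NKX2-5 shRNA cells, 9 higher and 1 lower, beside 43.9% of all genes. LFNG was at 4.90 ± 1.44 against 0.524 ± 0.133 CPM in WT (log2 3.17, SE 0.48) and HES6 at 7.35 ± 4.78 against 1.01 ± 0.402 CPM (log2 2.93, SE 0.62), the call of HES6 being lost without WT replicate 3 (2.52). RBPJ, the DNA-binding partner of the receptors, was at 77.3 ± 8.05 against 190 ± 23.3 CPM (log2 -1.29, SE 0.19, adjusted p = 0.002). In ZEB2 shRNA cells 5 passed, all higher, beside 10.6% of all genes in that direction, among them LFNG at 4.29 ± 0.0321 CPM (log2 2.96, SE 0.48) and DTX4 at 34.9 ± 3.71 against 13.4 ± 3.86 CPM (log2 1.38, SE 0.26). The LFNG call was lost when any 1 library was left out (2.78 to 3.29), and that of DTX4 without WT replicate 3 (1.11) or either ZEB2 shRNA library (1.28 and 1.5).

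At day 2, 9 of 31 pathway genes passed in NKX2-5 shRNA cells, 4 higher and 5 lower (26.7% of all genes), 10 in ZNF503 shRNA cells, 5 higher and 5 lower (26.9%), and 1 in ZEB2 shRNA cells (0.49%). LFNG, like DLL3, was lower with ZNF503 shRNA, at 8.33 ± 0.205 against 29.2 ± 1.66 CPM in WT (log2 -1.86, SE 0.13, adjusted p = 1.6e-07), and so was DLK1, at 0.275 ± 0.262 against 1.77 ± 0.273 CPM (log2 -2.36, SE 0.46). MAML2, a coactivator, was at 13.8 ± 0.143 against 5.79 ± 0.316 CPM (log2 1.20, SE 0.21). At day 0, 5 of 31 passed with NKX2-5 shRNA (15.9%), 2 with ZEB2 shRNA (3.93%) and 1 with ZNF503 shRNA (7.53%). HES4 was at 1.54 ± 0.328 CPM with NKX2-5 shRNA, 1.38 ± 0.0797 with ZNF503 shRNA and 0.423 ± 0.0432 in WT cells (log2 1.85 and 1.69, SE 0.36 in each), where the first call was lost without either WT library (1.96 and 1.75) and the latter without any 1 of the 4 libraries (1.60 to 1.80).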

How the data were processed

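Total RNA of the differentiating H1 cells was sequenced from stranded libraries. The authors mapped reads to hg19 (GRCh37) with TopHat2 2.0.14, Bowtie2 2.2.1.0 and SAMtools 0.1.19.0 (versions from the submitters' processing notes), allowing 2 mismatches and 1 best hit, counted them per RefSeq gene region with RSeQC, and deposited raw counts, which were used here. Reads over whole gene regions can include introns. Of 41627 RefSeq accessions, 40285 (96.8%, holding 97.1% of counts) matched a gene symbol, and each of the 23189 genes was taken as its accession with the largest total. Of 34 libraries 30 were used, and the WT and ZEB2 shRNA day 10 replicates 1 and 2 were left out because their values do not follow the accessions.

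The 10 genes and all gene lists were chosen with earlier results of these data known. Counts were normalized by TMM in edgeR 4.0.16 (R 4.3.3), genes with low counts were removed by filterByExpr (minimum count 10), and the quasi-likelihood test was applied to each comparison, its p-values being adjusted by Benjamini-Hochberg across every gene in the fit. One fit held all WT libraries, and 1 fit per day held all lines. A gene passed at an adjusted p of at most 0.05. The second rule was that of the study's methods: 2-fold and 10% false discovery rate at day 0, 4-fold and 10% at day 2, and 8-fold and 1% at days 6 and 10. The standard error is the log2 fold change divided by the root of the F statistic. CPM are TMM-normalized, RPKM use the exonic length of the canonical transcript, and correlations use log2(CPM + 1). Alternatives were DESeq2 1.42.0, RLE normalization, no filter, summed accessions, 1 fit of all libraries, the replicate number as a block, and leaving out each library. The tests were checked on simulated counts. Other pathway genes were named as up to 2 rises and 2 falls per comparison among those that passed, with groups that did not overlap and at least 1 CPM in the higher group, and the genes most alike in pattern as the 3 highest Pearson correlations for each of the 10, some of which are not reported here. The count of 3 taken as detection limit and the intervals cover counting error only. The labels do not say that replicates came from separate cultures, so p-values measure only the spread between these libraries.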

Additional observations from a re-analysis of the deposited data

Results flagged for a closer look

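Between the shRNA lines 39 of 67 tests of the 10 genes passed (edgeR quasi-likelihood test, adjusted p at most 0.05), and these differences, taken between lines without the WT libraries, are listed as log2 fold changes of the first line over the latter.

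At day 2, NKX2-5 shRNA over ZNF503 shRNA cells gave 1.45 for DLL3, 0.89 for NOTCH4 and 0.43 for HES1, and -1.45 for HEY2, -1.15 for JAG1, -1.03 for NOTCH1, -1.01 for DLL1 and -1.0 for NOTCH3. The NOTCH4 value was no longer called without either NKX2-5 shRNA library (0.89 and 0.89) or ZNF503 shRNA replicate 1 (0.68), nor that of HES1 without the last (0.35). NKX2-5 shRNA over ZEB2 shRNA cells gave -1.27 for DLL1, -1.26 for DLL3, -0.92 for NOTCH1, -0.76 for NOTCH3, -0.73 for HEY2 and -0.40 for JAG1, the last lost without either NKX2-5 shRNA library (-0.50 and -0.33) or ZEB2 shRNA replicate 2 (-0.27). ZEB2 shRNA over ZNF503 shRNA cells gave 2.71 for DLL3, 0.30 for HES1, -0.72 for HEY2 and -0.74 for JAG1, where HES1 was lost without ZEB2 shRNA replicate 1 (0.24) or either ZNF503 shRNA library (0.23 and 0.37).

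At day 6, NKX2-5 shRNA over ZNF503 shRNA cells gave -1.32 for HEY2, -1.29 for NOTCH4, -1.28 for NOTCH3, -0.97 for HES1 and -0.95 for JAG1. JAG1 and NOTCH4 were lost without either NKX2-5 shRNA library (-0.90 and -1.01, -1.16 and -1.47) or ZNF503 shRNA replicate 1 (-0.51 and -1.02), and HEY2 without NKX2-5 shRNA replicate 1 (-1.19) or ZNF503 shRNA replicate 2 (-1.07). NKX2-5 shRNA over ZEB2 shRNA cells gave 1.43 for DLL1, -5.06 for JAG1, -4.71 for HEY1, -2.60 for HES1, -2.53 for HEY2, -1.54 for DLL3 and -1.11 for NOTCH4. HEY1 was at -4.05 and -7.52 without NKX2-5 shRNA replicate 1 and 2, NOTCH4 was lost without any 1 of the 4 libraries (-1.30 to -0.98), and DLL3 without NKX2-5 shRNA replicate 2 (-1.14) or either ZEB2 shRNA library (-1.27 and -1.72). ZEB2 shRNA over ZNF503 shRNA cells gave 4.11 for JAG1, 3.73 for HEY1, 2.15 for DLL3, 1.63 for HES1, 1.21 for HEY2, -1.70 for DLL1 and -1.25 for NOTCH3. Without ZNF503 shRNA replicate 1 and 2, HEY1 was at 3.07 and 5.32 and DLL3 at 1.54, where it was lost, and 3.52, and DLL3 was also lost without ZEB2 shRNA replicate 1 (1.88). At day 10, NKX2-5 shRNA over ZEB2 shRNA cells gave 2.07 for NOTCH4, lost without ZEB2 shRNA replicate 3 (2.23) or 4 (1.92), and -1.83 for JAG1.

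At day 0, the libraries of 2 lines lay on opposite sides of the WT mean for 5 genes, and the differences between these lines were not tested. For NOTCH1 and NOTCH4 some of these libraries lay between the WT libraries. They were -0.61 for NOTCH1, -0.78 for DLL1 and 0.40 for HEY2 between NKX2-5 and ZNF503 shRNA cells, and -0.94 for NOTCH3, 0.47 for NOTCH4 and 0.41 for HEY2 between NKX2-5 and ZEB2 shRNA cells, on the log2 scale.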

How the results depend on the processing

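None of the 111 differences of the 10 genes that passed changed direction under any alternative. All 111 passed with RLE normalization and without the filter on low counts, 106 with DESeq2, 95 in 1 fit of all libraries and 100 with summed accessions, and 338 of 444 values that left out 1 library passed. Of 76 values of other pathway genes, 76 passed with DESeq2, and 240 of 304 with 1 library left out. By the fold and false discovery rate of the study the counts of genes were 2, 0 and 0 for WT days 2, 6 and 10 against day 0, 4 for WT day 6 against day 2 and 0 for day 10 against day 6. Against WT they were 2 (NKX2-5 shRNA) and 1 (ZNF503 shRNA) at day 0, 0 and 1 at day 2, 2 and 2 at day 6 with 0 for ZEB2 shRNA, and 0 for both lines at day 10. Between lines they were 0 (NKX2-5 and ZNF503), 0 (NKX2-5 and ZEB2) and 1 (ZEB2 and ZNF503) at day 2, 0, 2 and 2 at day 6, and 0 at day 10. In 1 fit of all libraries the counts were 2 for NKX2-5 shRNA and 0 for ZNF503 shRNA at day 0, 3 for NKX2-5 shRNA at day 2, and 5 between NKX2-5 and ZEB2 shRNA at day 10. With DESeq2 the count was 1 for ZEB2 shRNA at day 0, and without the filter it was 1 there, 5 for ZNF503 shRNA at day 2 and 2 for ZEB2 shRNA at day 6. With summed accessions it was 3 between NKX2-5 and ZNF503 shRNA at day 6. The cause of these shifts was not tested. Leaving out 1 library gave 5 to 6 genes for WT day 6 and 3 to 5 for WT day 10 against day 0, 3 to 6 for WT day 10 against day 6, 2 to 5 for NKX2-5 shRNA and 0 to 0 for ZNF503 shRNA at day 0, 3 to 5 for NKX2-5 shRNA at day 2, 0 to 1 for ZEB2 shRNA at day 6 and 0 to 0 at day 10, 2 to 4 between NKX2-5 and ZNF503 shRNA at day 6, and 1 to 5 between NKX2-5 and ZEB2 shRNA at day 10. Replicate numbers did not pair the libraries: deviations of same-numbered libraries correlated at -0.0774 to 0.118 over 19 comparisons, 1 of them over 0.1. With the replicate number as a block 89 of 94 values passed, and the counts were 2 for ZNF503 shRNA at day 0 and 2 for ZEB2 shRNA at day 6. At day 10 a block could not be fitted where groups share no number. Depth limits DLL4, which was at 0 to 54 counts per library.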
